A study of Mus musculus with 2 samples.

Results

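The 6 genes described here are Mecom, Hlf, Meis1, Hoxa9, Runx1 and Lyl1. They encode transcription factors that blood stem cells use, and they were chosen by name among the 14366 genes of 2 single-cell RNA tables. All 6 have a row in both tables, and all 6 passed the minimum of 5 CPM (molecules of the gene per 1000000 molecules of the library) on average over the libraries that 8886 genes passed. The starting cells, prospective hematopoietic stem cells (HSC), carried Sca-1, c-Kit and CD150 but neither CD48 nor lineage antigens; they were sorted from the pooled marrow of 8 wildtype C57/B6 mice aged 6 to 8 weeks. Both groups were cultured for 48 hours in Myelocult M5300 medium with Primocin, stem cell factor at 100 ng/ml and thrombopoietin at 50 ng/ml. One group received the iron chelator deferoxamine (DFO) at 10 µM, and the other received its vehicle, sterile water. From each group 20000 live cells went into 10x Genomics 3′ v3 library preparation, which tags each captured RNA molecule near its 3′ end with a molecular identifier (UMI). Each group is 1 library from 1 culture of pooled marrow, so there is no spread between replicates and no test. Intervals below are 95% intervals for counting error only: they leave out differences between cultures, mice and preparations.

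In mouse blood, Mecom (whose products include Evi1) and Hlf, a PAR-domain basic leucine zipper factor, are known for their restriction to the most immature cells and for maintaining the stem cell pool. Hoxa9 and Meis1 are homeodomain proteins that bind DNA together, and their forced expression is a classical cause of leukemia. Runx1 binds DNA with its partner Cbfb; it is needed for the first blood stem cells to form and later for platelet formation. Lyl1 is a basic helix-loop-helix factor close to Tal1 that pairs with E proteins such as Tcf3 and belongs, with Runx1, to a group of factors that often occupy the same blood enhancers.

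The vehicle library holds 8708 cells with a median of 27805.5 UMIs, and the DFO library 9852 cells with a median of 27114; the 2 tables share 24 cell barcodes. After culture all 21 HSC markers searched had at least 1 molecule, and 16 of them reached the minimum. Of the 16, 8 were higher and 8 lower with DFO. The lowest difference was that of Vwf, at 6.837 CPM with vehicle and 4.175 CPM with DFO (log2 difference -0.60). The highest was that of Ly6a, at 83.9 and 111 CPM (0.40). Procr stood at 5.17 CPM with vehicle and 5.75 CPM with DFO, Slamf1 (CD150) at 14.4 and 11.8, and Kit at 35.3 and 40.8. Cells with megakaryocyte RNA were abundant in both libraries. Of 12 megakaryocyte markers at the minimum, all 12 were lower with DFO, where 42.1% of all 8886 genes were lower and 57.9% higher. Of the 12, 9 passed a log2 difference of 0.25, with Pf4 (platelet factor 4) at 1447 CPM against 592. This gap runs alongside the values that follow, and its part in them was not tested. Bins of megakaryocyte marker molecules are compared below, and they are cut on these same markers. The eosinophil list had 1 of its 5 genes in the tables, and no lymphoid marker but Flt3 (8.61 and 8.74 CPM) reached the minimum.

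All positions are GENCODE M21 on GRCm38. Mecom spans chr3:29951296-30548008 on the minus strand, Hlf chr11:90336536-90390895 (minus), Meis1 chr11:18879817-19018985 (minus), Hoxa9 chr6:52223100-52231089 (minus), Runx1 chr16:92601466-92826149 (minus) and Lyl1 chr8:84701457-84704715 (plus). Lyl1 lies wholly inside the span of Nfix, which is read from the other strand, and Mecom, Meis1 and Runx1 overlap non-coding genes on their other strand (2, 2 and 1 of them). Over both strands, 7 genes overlap Mecom, 5 overlap Meis1 and 1 overlaps Hoxa9, so these 3 also have overlaps on their own strand. The sources used here do not say whether strand was used in counting. Nfix itself was counted at 56.6 CPM with vehicle and 59.3 CPM with DFO.

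Runx1 and Mecom each have more than 1 promoter, and counting at the 3′ end adds the products of all of them. The bases before the starts of Hlf and Mecom, the pair farthest above the product of their shares in single cells, and of Meis1 and Runx1, the 2 genes that were higher in megakaryocyte-like cells, are given from RefSeq (GRCm38.p6), 5′ to 3′ on the minus strand and cut before the first annotated exon. Capitals mark any match, on either strand, to the GATA word AGATAA, the ETS word CCGGAA, the RUNX word TGTGGT or the Meis-type word TGACAG. The printed Mecom window and the proximal Runx1 window lie inside the spans of their genes, so longer transcripts start upstream of them. The second Mecom start lies within an exon of a longer transcript and is not printed.
Mecom, chr3:30509823-30510009: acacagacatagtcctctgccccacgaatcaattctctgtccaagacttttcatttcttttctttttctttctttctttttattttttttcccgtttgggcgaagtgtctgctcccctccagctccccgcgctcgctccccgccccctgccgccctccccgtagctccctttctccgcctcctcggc
Hlf, chr11:90390918-90391167: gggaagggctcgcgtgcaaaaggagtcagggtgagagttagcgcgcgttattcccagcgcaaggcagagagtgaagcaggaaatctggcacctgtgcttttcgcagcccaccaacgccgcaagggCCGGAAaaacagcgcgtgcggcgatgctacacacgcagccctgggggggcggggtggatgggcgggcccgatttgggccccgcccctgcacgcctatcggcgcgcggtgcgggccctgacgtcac
Meis1, chr11:19018986-19019219: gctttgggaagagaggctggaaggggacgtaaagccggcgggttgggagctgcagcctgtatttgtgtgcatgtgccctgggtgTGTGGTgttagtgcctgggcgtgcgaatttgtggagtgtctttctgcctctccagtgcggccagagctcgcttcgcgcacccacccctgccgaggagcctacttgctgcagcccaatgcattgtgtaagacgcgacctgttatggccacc
Runx1 distal start, chr16:92826150-92826324: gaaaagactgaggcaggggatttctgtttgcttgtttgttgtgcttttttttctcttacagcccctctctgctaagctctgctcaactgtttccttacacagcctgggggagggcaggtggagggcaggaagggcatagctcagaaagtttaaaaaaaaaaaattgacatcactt
Runx1 proximal start, chr16:92697330-92697579: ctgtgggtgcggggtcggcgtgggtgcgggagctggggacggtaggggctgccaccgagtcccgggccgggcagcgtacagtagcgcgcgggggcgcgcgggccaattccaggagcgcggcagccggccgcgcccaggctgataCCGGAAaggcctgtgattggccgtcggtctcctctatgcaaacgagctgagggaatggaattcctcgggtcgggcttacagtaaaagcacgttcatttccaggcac

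An ETS word stands before Hlf and before the proximal Runx1 start, and 12.0% of all 32851 RefSeq windows of that length (250 bases) hold one. The RUNX word stands before Meis1, as in 13.3% of windows of its 234 bases. The Mecom window and the distal Runx1 window hold none of the 4 words. The E-box CANNTG, the kind of site Lyl1 dimers bind, occurs once before Hlf (as CACCTG), once before Meis1 (CATGTG) and at 2 places before the distal Runx1 start (CAACTG and CAGGTG); it is in 66.2% of windows of 250 bases. These matches describe letters only.

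Mecom and Hlf were found in a minority of cells at equal depth. To compare detection, each cell was thinned at random to 10000 UMIs, which kept 8357 vehicle and 9419 DFO cells. Mecom then had a molecule in 23.7% of vehicle cells (interval 22.8 to 24.6) and in 26.5% of DFO cells (25.6 to 27.4). Without thinning its shares were 46.1% and 50.6%. Its level was 29.7 CPM (29.1 to 30.4) with vehicle and 33.1 CPM (32.5 to 33.8) with DFO, a log2 difference of 0.15 (0.11 to 0.19) on the log2(CPM + 1) scale used throughout.

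Hlf was detected in 36.5% of thinned vehicle cells (35.5 to 37.6) and 40.8% of thinned DFO cells (39.8 to 41.8), and in 57.3% and 63.6% unthinned. Its level was 62.9 CPM (61.9 to 63.8) against 71.5 CPM (70.6 to 72.5), a log2 difference of 0.18 (0.16 to 0.21). It was the gene of the 6 whose molecules were most concentrated in few cells: the 10% of cells richest in Hlf held 46.0% of them with vehicle and 42.1% with DFO. For Mecom those shares were 45.3% and 41.7%, and for Meis1, the most widely detected gene, 25.0% and 24.7%.

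Hoxa9 had the same direction: 32.0% of thinned vehicle cells and 35.1% of thinned DFO cells held a molecule, and its level was 41.0 CPM (40.2 to 41.8) against 45.9 (45.1 to 46.7), a log2 difference of 0.16 (0.12 to 0.20). Meis1, its DNA-binding partner, did not move with it. Meis1 was in 77.2% and 76.0% of thinned cells, at 159 and 155 CPM, and its log2 difference was -0.040 (-0.059 to -0.021).

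Runx1 was the gene of the 6 whose level was farthest below its vehicle value: 78.7 CPM (77.6 to 79.7) with vehicle and 70.9 CPM (69.9 to 71.8) with DFO, a log2 difference of -0.15 (-0.18 to -0.12). It was in 49.5% and 47.1% of thinned cells. Lyl1 stood at 93.8 CPM with vehicle and 90.4 CPM with DFO, a log2 difference of -0.053 (-0.078 to -0.028), and was in 59.4% and 57.6% of thinned cells.

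None of these differences was large. No gene of the 6 reached a log2 difference of 0.25, which 3.97% of the 8886 genes did in either direction. At 0.1, Mecom, Hlf and Hoxa9 passed upward and Runx1 downward, 4 of 6, while 19.2% of all genes passed upward, 14.0% downward and 33.1% in all. The median over the 6 genes was 0.056 and over all genes 0.019, with an SD of 0.13 across genes. Each counting interval leaves out 0, but between cultures the spread is not known.

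The 6 genes differed far more between kinds of cells than between libraries. All cells were clustered together without cycle genes and without the 6 genes themselves, which gave 9 clusters. A cluster of 3873 cells led by Cavin2, Pf4, Treml1 and Timp3 was called megakaryocyte-like, and a cluster of 166 cells led by Mpo, Ctsg and Elane neutrophil-monocyte-like, from their markers. The others keep the names of leading genes, since no marker set led them clearly. The cluster led by Sult1a1, Pdcd1 and Ctss (2443 cells) held 17 of the 21 HSC markers above their level in other cells, but lymphoid and macrophage markers had a higher mean fold there, so it is not named.

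Hlf separated these cells most: its level was highest in the Sult1a1-led cluster at 172 CPM and lowest in the megakaryocyte-like cluster at 13.7 CPM, 12.6 times apart. It was also low in both clusters led by Trnp1, at 17.5 CPM where Aqp1, Cpa3 and Klf1 accompanied Trnp1 and 18.4 CPM where Il1rl1 and Gzmb did. The neutrophil-monocyte-like cells stood at 41.5 CPM, below the 5 clusters that remain.

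Mecom followed a similar order with a 4.8-fold span, from 11.1 CPM in the neutrophil-monocyte-like cells and 11.9 CPM in the megakaryocyte-like cells to 53.1 CPM in the Sult1a1-led cluster and 53.2 CPM in a shallow cluster led by Rpgrip1. That shallow cluster (882 cells) had a median of 6926 UMIs and 6.86% mitochondrial molecules, and it also held the highest Meis1 and Runx1 levels, 240 and 149 CPM. The part of its low depth in those levels was not tested. Hoxa9 ranged only from 20.5 CPM in megakaryocyte-like cells to 57.8 CPM in the cluster led by the mitosis genes Nusap1 and Ube2c.

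**Figure D1:**
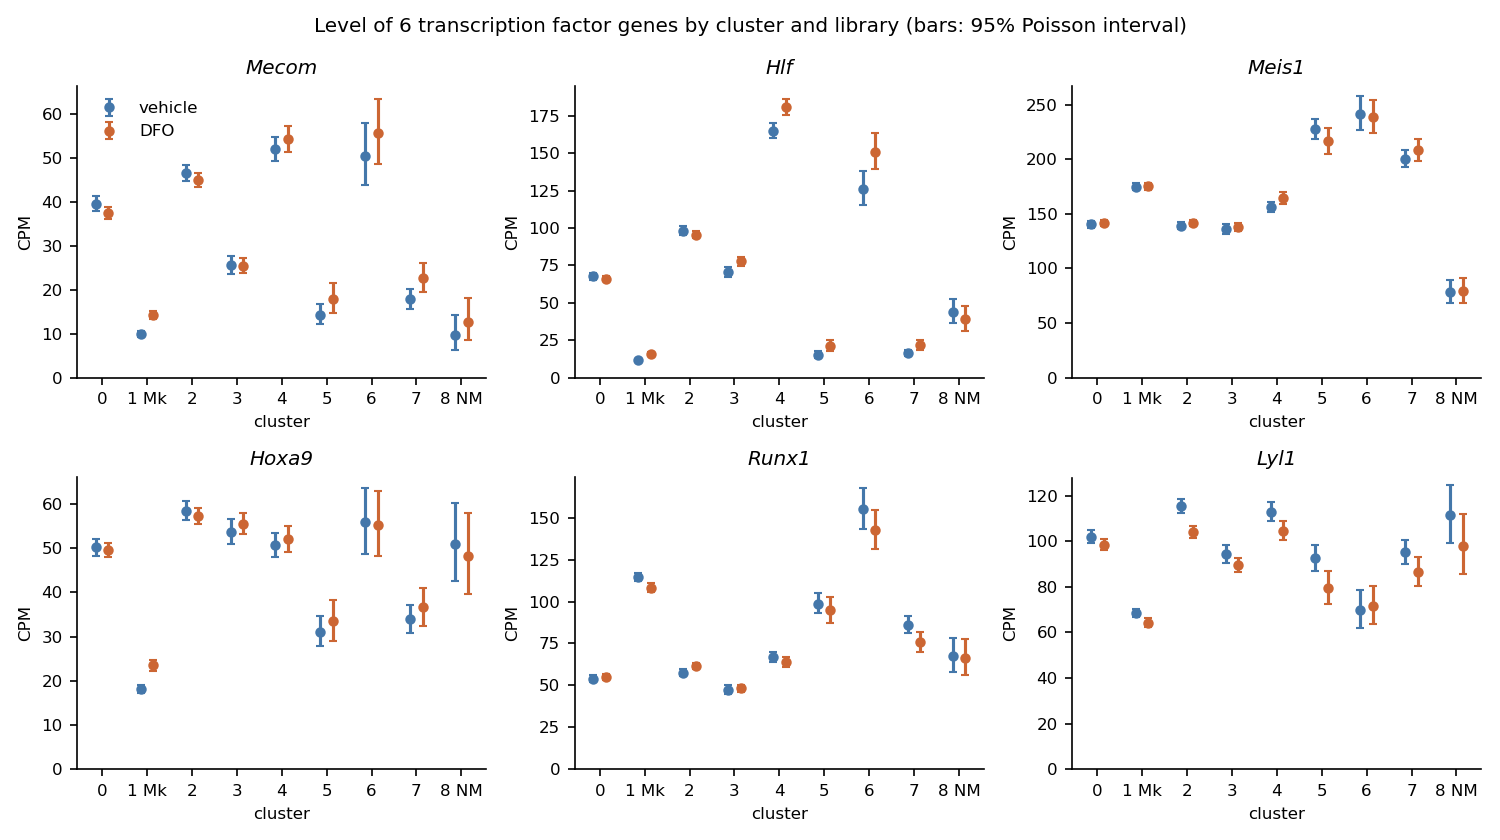
Level of each gene in CPM (y axis, from 0) in the 9 clusters (x axis; Mk, megakaryocyte-like; NM, neutrophil-monocyte-like) with vehicle (blue) and DFO (orange); bars are 95% Poisson intervals. Hlf is lowest in clusters 1, 5 and 7 and highest in cluster 4, the Sult1a1-led cluster, in both libraries. Meis1 is highest in cluster 6, then 5 and 7, and Runx1 in cluster 6, then 1, the megakaryocyte-like cluster.

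Against all other cells, megakaryocyte-like cells had less of 4 of the genes and more of the other two. With both libraries pooled, the level in the megakaryocyte-like cluster and outside it was 13.7 and 86.2 CPM for Hlf (log2 difference -2.57), 11.9 and 38.3 CPM for Mecom (-1.61), 20.5 and 51.6 CPM for Hoxa9 (-1.29) and 66.7 and 101 CPM for Lyl1 (-0.59). Runx1 was higher inside, 112 against 61.6 CPM (0.85), and so was Meis1, 175 against 151 CPM (0.22). Meis1 was higher still in both Trnp1-led clusters (224 and 203 CPM) and in the shallow Rpgrip1-led cluster (240 CPM). The clusters were built from these same cells, so the values are descriptions. The directions were the same 4 and 2 at clustering resolutions 0.25 and 1, where the Meis1 difference was 0.27 and 0.078.

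Free RNA in droplets can give molecules to cells that do not make them, and no cell kind here is known to lack these genes. At the equal depth of 10000 UMIs, Hlf was in 9.63% of megakaryocyte-like vehicle cells (median depth before thinning 32723 UMIs in both libraries together) and in 27.9% of neutrophil-monocyte-like ones (27355 UMIs). In the Sult1a1-led cluster (20281 UMIs) it was in 68.4%. Mecom was in 9.04%, 11.6% and 36.2% of those same cells. How much of the lowest shares is free RNA was not tested.

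The same order held along a scale of megakaryocyte RNA. Thinned cells were ranked within each library by their summed molecules of the megakaryocyte markers and split into quartiles. With vehicle, the share of cells with Hlf went from 55.7% in the lowest quartile through 47.0% and 29.2% to 10.5% in the highest; with DFO it went from 54.5% through 49.1% and 38.8% to 18.1%. Mecom went from 33.5% to 8.74% with vehicle and from 30.8% to 14.8% with DFO.

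Runx1 ran the other way, from 39.5% in the lowest quartile to 65.9% in the highest with vehicle and from 39.9% to 59.7% with DFO. Meis1 went up less, from 72.7% to 82.7% and from 71.6% to 82.7%. Hoxa9 went down from 41.3% to 18.4% and from 41.3% to 23.8%, and Lyl1 from 63.9% to 49.7% and from 60.3% to 49.1%. The top quartile began at 25 marker molecules with vehicle and at 14 with DFO, so a quartile number does not mean the same content in the 2 libraries, and many cells sit near a boundary (3150 vehicle and 5417 DFO cells within 1 molecule of one).

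Hlf also differed along the cell cycle genes. In the quartile with the fewest S phase and G2/M molecules it was in 45.5% of vehicle and 49.5% of DFO cells, and in the other quartiles in 30.9% to 35.4% and 35.9% to 39.5%. Its level there was 100 and 102 CPM, against 58.8 and 65.3 CPM in the quartile with the most. Thinned to 20000 UMIs, the lowest quartile again held the highest share, 56.9% and 61.5%, against 43.6% to 49.2% and 50.2% to 54.0%. Hoxa9 had its highest share in the quartile with the most cycle molecules, 35.1% with vehicle and 38.1% with DFO, against 30.3% and 34.4% in the lowest. For the other 4 genes the first and last quartiles were within 4 percentage points of each other, with lower values between. At 20000 UMIs the last quartile was the higher of the pair for Mecom, Meis1 and Lyl1 with vehicle (for Mecom 39.8% in the first and 40.5% in the last) and for all 4 with DFO.

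**Figure D2:**
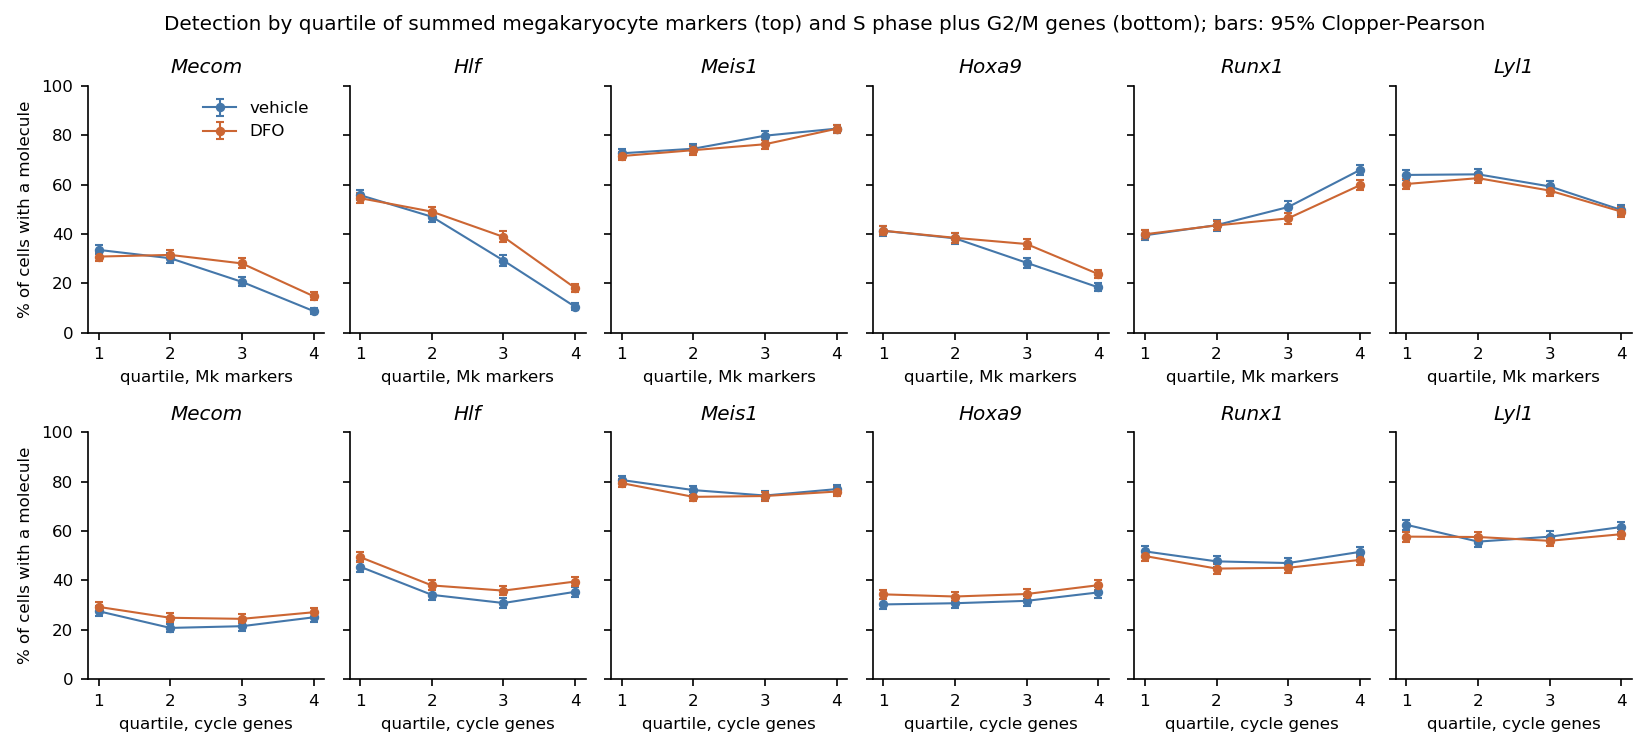
Percent of thinned cells with at least 1 molecule of each gene (y axis, 0 to 100) by quartile (x axis) of summed megakaryocyte markers (top row) and of summed S phase plus G2/M genes (bottom row), with vehicle (blue) and DFO (orange); bars are 95% Clopper-Pearson intervals. Hlf goes from 55.7% to 10.5% over the megakaryocyte quartiles with vehicle while Runx1 goes from 39.5% to 65.9%, and the cycle quartiles differ much less.

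Hlf was found more often in cells with more neutrophil-monocyte marker molecules. With vehicle it was in 20.8% of cells with none, in 29.7% with 1 or 2 and in 48.5% with 3 or more. With DFO the shares were 28.0%, 35.9% and 51.5%. From none to 3 or more, Mecom, Hoxa9 and Lyl1 also rose with vehicle, from 16.8% to 27.7%, 24.4% to 36.3% and 56.8% to 62.3%. Meis1 and Runx1 fell, from 80.6% to 75.2% and 53.1% to 46.4%. These directions were the same with DFO. Most of the neutrophil-monocyte marker molecules were Prtn3 (163 and 151 CPM) and Lyz2 (66.6 and 62.1 CPM). Both are granule genes that were counted well beyond the neutrophil-monocyte-like cluster of 166 cells. Across vehicle cells Hlf had a Pearson correlation of 0.25 with this list and of -0.36 with the megakaryocyte list (n = 8357 cells of 1 library at 1 depth, a description with no test). Outside the megakaryocyte-like cluster those values were 0.18 and -0.25, and inside it 0.061 and -0.1. The rise was not particular to this list. Erythroid markers were binned alike, with 269 vehicle cells at none and 6819 at 3 or more. Between those bins Hlf went from 31.2% to 37.2% and Mecom from 16.0% to 25.0%. Meis1 and Runx1 rose as well, from 64.3% to 78.0% and 44.6% to 49.7%. Hoxa9 (31.97% and 32.19%) and Lyl1 (59.85% and 59.73%) barely differed.

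The libraries were then compared at like counts of megakaryocyte marker molecules, with the vehicle quartile boundaries applied to both. The lowest bin held 0 to 6 marker molecules (2484 vehicle and 3553 DFO cells), the second bin 7 to 10 (1907 and 2575), the third bin 11 to 24 (1896 and 2191) and the highest 25 or more (2070 and 1100). In the third bin Hlf was at 44.6 CPM in both libraries and Hoxa9 at 38.4 and 38.3 CPM, where the whole libraries had differed by 0.18 and 0.16. The second bin gave 83.2 and 82.0 CPM for Hlf and 40.1 and 39.4 CPM for Mecom.

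At the ends of the scale Mecom and Hlf parted in opposite ways. In the lowest bin they were lower with DFO, Hlf at 107 against 97.7 CPM (log2 difference -0.13) and Mecom at 44.6 against 40.9 CPM (-0.12). In the highest bin they were higher with DFO, 13.3 against 15.4 CPM (0.20) and 8.92 against 10.4 CPM (0.20), at levels where few molecules were counted. Runx1, lower with DFO over all cells, was at 53.1 and 54.5 CPM in the lowest bin and at 118 CPM in both libraries in the highest.

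Lyl1 was the exception: it was lower with DFO in each of the 4 bins. Its levels with vehicle and DFO were 105 and 98.3 CPM in the lowest bin, 108 and 99.3 in the next, 94.0 and 82.7 in the one after and 71.3 and 64.4 in the highest, log2 differences of -0.097, -0.13, -0.18 and -0.15. Lyl1 was also lower with DFO in 8 of the 9 clusters, the exception being the shallow Rpgrip1-led one at 69.7 and 71.6 CPM. The counting interval left out 0 in 5 of those 8 clusters. Over all cells the Lyl1 difference was smaller (-0.053) than in any bin.

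With both libraries weighted to equal shares of the 4 bins, a comparison added after the data were seen, the log2 differences became -0.047 for Mecom, -0.058 for Hlf, 0.0027 for Hoxa9, 0.015 for Runx1, 0.0082 for Meis1 and -0.13 for Lyl1. Mecom, Hlf, Runx1 and Meis1 thus changed sign, at small values that carry no interval, and the Lyl1 difference grew. How many of all genes changed sign is not given, so the sign changes single out no gene. With equal bins, 30.2% of all 8886 genes differed by 0.1 or more in either direction. So did 41.2% of the 51 further transcription factors described below. Weighting to equal cluster shares instead left 0.057, 0.084 and 0.063 for Mecom, Hlf and Hoxa9, -0.042 for Runx1, 0.013 for Meis1 and -0.092 for Lyl1. The bins use the very markers that were lower with DFO, and a library sum alone cannot tell fewer megakaryocyte-like cells from less marker RNA in each. Counted by cell, the megakaryocyte-like cluster took in 2053 cells out of 8708 with vehicle and 1820 out of 9852 with DFO. The marker Pf4 inside that cluster was at 3915 CPM with vehicle and 2039 CPM with DFO. Both the cluster's share and its Pf4 level were thus lower with DFO. The part of each in the differences above was not tested.

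**Figure D3:**
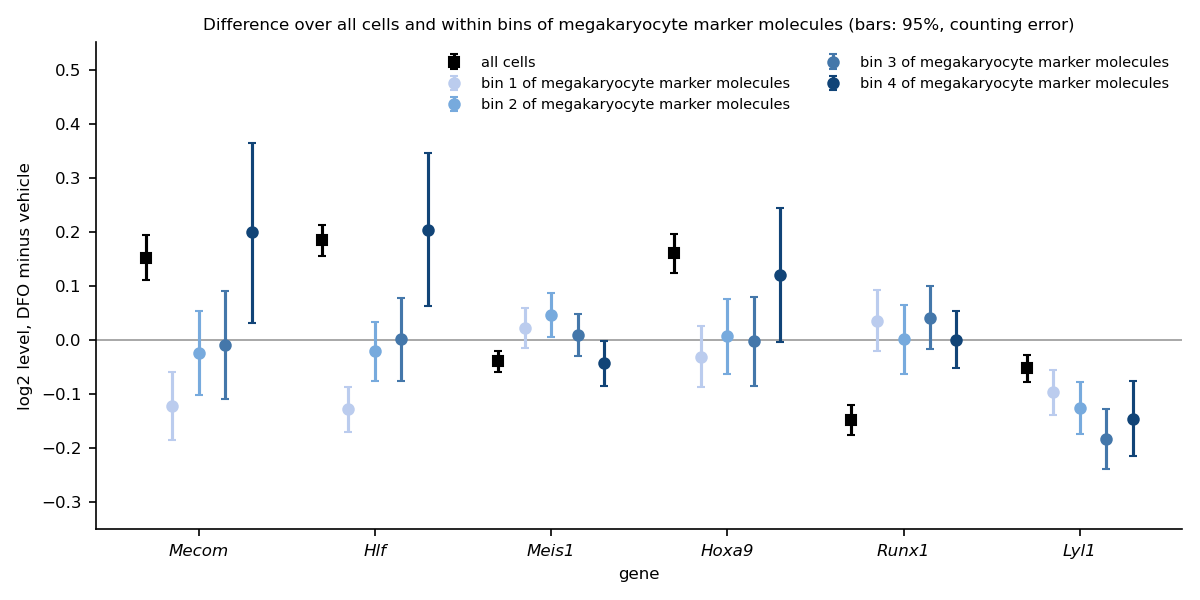
Log2 difference in level, DFO minus vehicle (y axis), for each gene over all cells (black squares) and in 4 bins of megakaryocyte marker molecules with the same boundaries in both libraries (blue circles, darker with more molecules); bars are 95% intervals for counting error. Lyl1 is below 0 in all 4 bins (-0.097 to -0.18), while Mecom, Hlf, Hoxa9 and Runx1 lie nearer to 0 in the middle bins than over all cells.

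By cluster, Mecom and Hoxa9 differed most between libraries in the megakaryocyte-like cells, where their levels were among the lowest, and Hlf differed there nearly as much as in the small cluster led by Trnp1, Aqp1 and Klf1 (15.4 and 21.3 CPM, 0.45). In the megakaryocyte-like cells Mecom was at 9.94 CPM with vehicle and 14.3 CPM with DFO (log2 difference 0.48), Hlf at 11.8 and 16.0 CPM (0.41) and Hoxa9 at 18.1 and 23.5 CPM (0.36). Pf4 inside this same cluster was at 3915 CPM with vehicle and 2039 CPM with DFO, and its part in these differences was not tested. In the highest bin of marker molecules, with the same cuts in both libraries, the differences were 0.20 for Mecom and Hlf and 0.12 for Hoxa9. The shares of these thinned cells with a molecule were low, 9.04% and 13.1% for Mecom and 9.63% and 12.1% for Hlf, and the part of free RNA in them was not tested. In the 2 largest other clusters, led by histone genes and by Nusap1, all 3 genes were slightly lower with DFO (-0.078 to -0.017). In the Sult1a1-led cluster Hlf was at 165 and 181 CPM (0.13).

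Partners and relatives of the 6 factors showed how far they share these patterns. Among 11 partners and cofactors at the minimum, 7 were higher and 4 lower with DFO, with a median of 0.051, a split near that of all genes (57.9% higher). The lowest was the corepressor gene Ctbp1 at 129 CPM with vehicle and 124 CPM with DFO (-0.057). Ldb1, which bridges Lmo2 complexes, was the highest at 22.9 and 27.6 CPM (0.26). The E protein Tcf3, which pairs with Lyl1, stood at 90.4 and 104 CPM (0.20), and Cbfb, the partner of Runx1, at 43.8 and 49.3 CPM (0.17).

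Weighting to equal marker bins left Ldb1 at 0.24, Tcf3 at 0.19 and Cbfb at 0.15. All 3 differed little between megakaryocyte-like and other cells (-0.16, -0.080 and -0.11).

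Of the 7 factors that often share blood enhancers (Tal1, Lyl1, Lmo2, Gata2, Runx1, Fli1 and Erg), all 7 were lower with DFO, with a median of -0.10. Of all genes, 42.1% were lower. Fli1, an ETS factor needed for megakaryocytes, was the lowest at 88.3 and 75.7 CPM (-0.22) and Erg the nearest to 0 at 13.7 and 13.4 CPM (-0.030). Weighted to equal bins, Fli1 was at -0.0035, Tal1 at 0.010, Gata2 at 0.029 and Lmo2 at 0.0012, whereas Lyl1 and Erg were at -0.13 and -0.14. Erg rests on far fewer molecules, 3573 and 3808.

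The Hox A genes moved with Hoxa9. All 4 at the minimum were higher with DFO, as were 57.9% of all genes. The 4 were Hoxa5 at 7.74 and 9.01 CPM (0.20), Hoxa7 at 24.8 and 28.4 CPM (0.19), Hoxa10 at 18.3 and 20.97 CPM (0.18) and Hoxa9 itself (0.16). These genes are neighbours on chromosome 6, and where their transcripts overlap counting may not tell them apart. With equal bins Hoxa10 kept 0.13 and Hoxa5 0.073, while Hoxa7 was at 0.013. In the Hox B cluster, Hoxb2 was at 8.06 and 9.55 CPM (0.22) and Hoxb4 at 11.6 and 11.5 CPM (-0.0094). Among chromatin regulators that act on Hox genes, 5 of 7 were higher (57.9% of all genes were), with Psip1 highest (0.15) and Kmt2a lowest (-0.077).

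Of the relatives of the 6 factors, Runx2 was at 26.0 and 28.5 CPM (0.13), Runx3 at 205 and 208 CPM (0.023), Prdm16, which is related to Mecom, at 4.71 and 5.30 CPM (0.14), and Tal1 at 50.5 and 46.4 CPM (-0.12). With equal bins Runx1 was at 0.015, Runx2 at -0.066 and Runx3 at 0.060, so the order of the Runx genes over all cells did not hold there. Of 21 other HSC transcription factors, 14 were higher and 7 lower (median 0.054), again near the split of all genes. Nkx2-3 (0.28) and Id2 (0.22) were highest, and Zbtb16 (-0.33) and Gfi1b (-0.26) lowest.

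The level in megakaryocyte-like cells is set beside the difference with DFO for 51 further factors of these lists. Of 9 factors with a log2 level at least 0.5 higher in megakaryocyte-like cells, 7 were lower with DFO, with a median of -0.17. Of 18 at least 0.5 lower there, 13 were higher, with a median of 0.059, and of the 24 between, 18 were higher with a median of 0.070. Both values come from the same cells, and the megakaryocyte-like cluster held 2053 of 8708 vehicle cells and 1820 of 9852 DFO cells. The 2 values are therefore not independent. All genes were not split by their level in this cluster, so these counts single out no transcription factor. Over all 51, 33 were higher (64.7%, against 57.9% of all genes), and with equal bins 30 were (58.8%, against 56.3%).

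**Figure D4:**
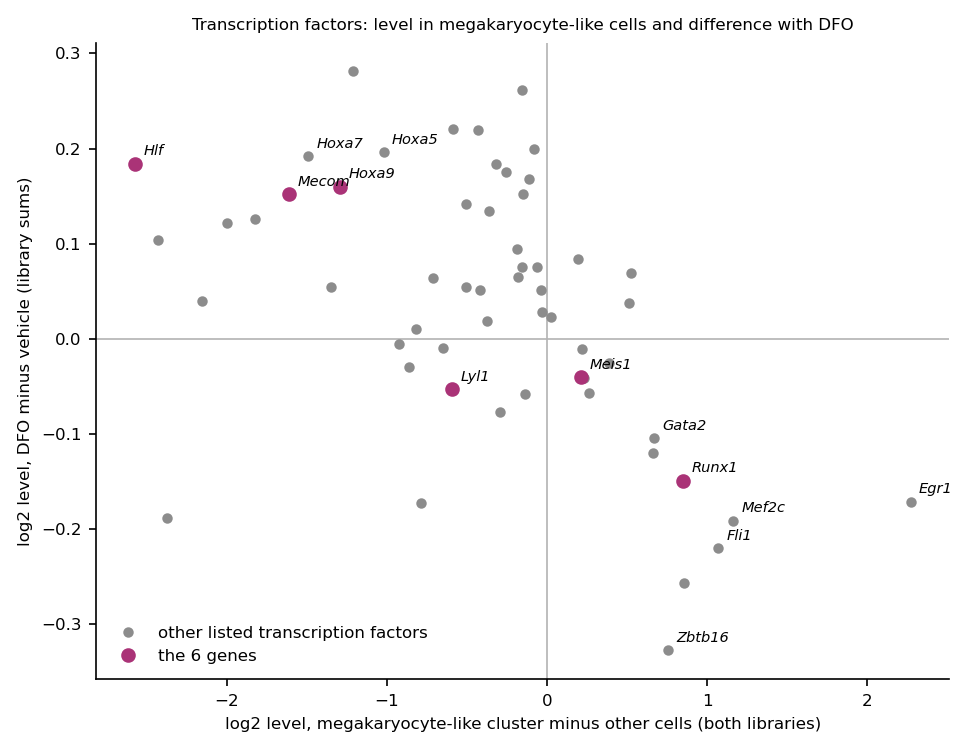
Each point is a transcription factor at the minimum level: log2 level in the megakaryocyte-like cluster minus other cells, both libraries pooled (x axis), against log2 level with DFO minus vehicle (y axis); the 6 genes are purple and 51 others grey. Egr1 lies farthest right (2.27 and -0.17), Hlf farthest left (-2.57 and 0.18) and Zbtb16 lowest (0.76 and -0.33).

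Within single cells Mecom and Hlf were found together more often than the product of their shares. In thinned cells 1011 vehicle cells held both, 12.1% (11.4 to 12.8) where the product is 8.65%, a ratio of 1.40. With DFO 1300 cells held both, 13.8% (13.1 to 14.5) where the product is 10.8%, a ratio of 1.28. Within clusters, where each cluster's own shares make the product, the ratios were 1.11 and 1.12.

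Hlf with Hoxa9 had ratios of 1.25 and 1.15, and Mecom with Hoxa9 1.24 and 1.09. The lowest of the 15 pairs was Hlf with Runx1, at 0.88 with vehicle (1334 cells with both) and 0.95 with DFO (1710 cells). Meis1 with Hoxa9, whose proteins act together, was near the product, at 0.97 and 1.01. In all, 7 of 15 pairs exceeded the product with vehicle and 9 with DFO, by any margin. The counting interval lay above the product for 6 vehicle and 4 DFO pairs, and below it for 3 and 1. Within clusters 12 pairs exceeded the product in each library, with no ratio above 1.12. No such count over other gene pairs is given here.

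**Figure D5:**
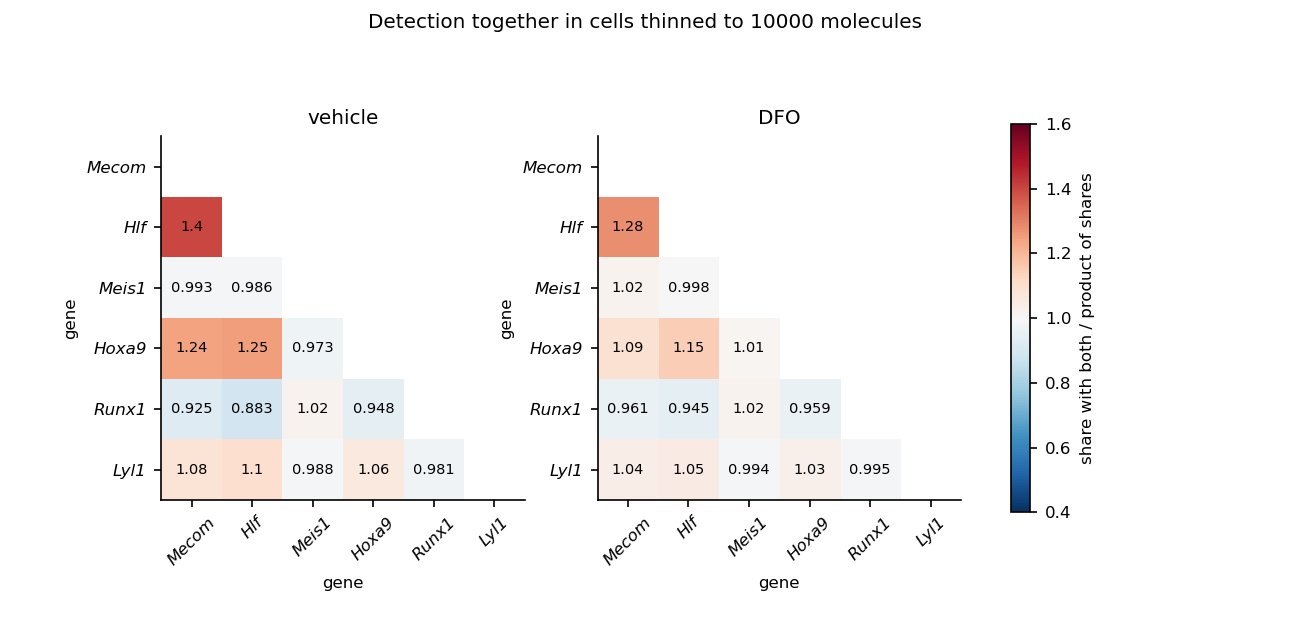
Share of thinned cells with both genes divided by the product of their shares, for the 15 pairs with vehicle (left) and DFO (right); both axes list the genes, and red is above 1 and blue below. Mecom with Hlf is highest (1.40 and 1.28) and Hlf with Runx1 lowest (0.88 and 0.95).

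All 3 of Mecom, Hlf and Hoxa9 were in 451 vehicle cells, 5.40% (4.92 to 5.90) against a product of 2.76%, and in 545 DFO cells, 5.79% (5.32 to 6.28) against 3.79%. None of the 3 was in 38.5% of vehicle and 32.2% of DFO cells, against products of 33.0% and 28.3%. All 6 genes were in 106 vehicle cells (1.27%) and 127 DFO cells (1.35%), and none of them in 156 (1.87%) and 163 (1.73%). At 10000 UMIs a cell without a molecule may still make the RNA.

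The genes most like Hlf across cells, out of 7131 compared, were Ly6a (the antigen Sca-1 used in the sort), with correlations of 0.40 with vehicle and 0.36 with DFO, the histone variant gene H2afy (0.39 and 0.35), Emb (0.35 and 0.32), S100a4 (0.34 and 0.30) and Vim (0.35 and 0.28). Least like it were Itga2b (CD41, -0.33 and -0.28), H2afz and the metallothionein gene Mt1. Mecom was also most like Ly6a (0.28 and 0.24), and Hlf was among its 5 closest genes (0.22 and 0.18). For Runx1, Pf4 had 0.22 and 0.17. For Hoxa9, Meis1 and Lyl1 the highest values were 0.19, 0.13 and 0.14 with vehicle. Values this low in sparse counts, those of Mecom and Runx1 included, are given as descriptions and single out no gene. All of these are over 8357 vehicle and 9419 DFO cells that share a library and a thinned depth.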

How the data were processed

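The data are 2 single-cell libraries, 1 per group, with groups taken from the sample labels. Per the submitters' processing notes, FastQC 0.11.9, Trim Galore 0.6.5, Cell Ranger 3.0.2 and the build mm10 were used; the sources used here give neither the cell filter nor the strand setting. The authors deposited natural log values per gene and cell. These came out as ln(1 + 27408 × molecules / cell total): 100% of nonzero values gave whole molecules within 0.05. All deposited cells were kept. They were sequenced to 260938938 (vehicle) and 284326017 (DFO) molecules, so intervals on sums are narrow, and they cover counting error only.

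The whole molecules of each library were added up gene by gene and turned into CPM. A difference is the log2 of DFO CPM + 1 over vehicle CPM + 1, taken where the average of both libraries was at least 5 CPM. A single library per group allows no count model. Levels have Poisson intervals and detection shares have Clopper-Pearson intervals, each exact. Thinning to 10000 molecules drew without replacement (seed 1) and left out 351 vehicle and 433 DFO cells. Clustering used 2000 variable genes without cycle, mitochondrially encoded and ribosomal protein genes and without the 6 genes, 30 components, 15 neighbours and Leiden resolution 0.5 (scanpy 1.11.5, leidenalg 0.10.2, Python 3.11.15). A cluster was named where a type had 3 detected markers, 2 of them in the top 10 genes, more than any other type, and the highest mean fold, a rule set after seeing the data. No doublet caller was run: cells with molecules of both sexes and the top 5% by molecules (545 and 652 cells) were left out as an alternative. The sums were tested on simulated data. The 6 genes, the 7 transcription factor lists and the marker lists were chosen with earlier results of these data known. Named are the 6 genes, the 5 most and 3 least correlated genes of each, list genes with the 2 highest and 2 lowest differences, other factors of those lists, and leading genes of clusters. Among these, 1 gene is not reported here.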

Additional observations from a re-analysis of the deposited data

How the results depend on the processing

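The count of genes past a log2 difference of 0.25 was 0 under each of the 12 ways of combining, scaling, filtering or weighting cells and at a threshold of 0.5, and 4 at 0.1. Over those 12, Lyl1 was lower with DFO throughout (-0.13 to -0.028) and Hoxa9 higher (0.0027 to 0.17). Mecom (-0.047 to 0.16), Hlf (-0.058 to 0.20) and Runx1 (-0.17 to 0.015) kept their direction in 11, all but equal marker bins, where the median over the 6 genes was -0.022; Meis1 was lower in 10. The median share of cells with a gene follows depth: with vehicle 43.0%, and 27.4% at 5000, 60.5% at 20000, 69.8% unthinned and 41.9% in cells called male; with DFO 43.9%, and 28.0%, 62.3% and 70.7%. Unthinned, 14 pairs exceeded the product in each library; within clusters 12 vehicle pairs did. The number of genes with a lower share in the top than the bottom cycle quartile was 5 (vehicle) and 4 (DFO), and 2 and 1 at 20000 molecules, where 19.3% and 19.9% of cells were too shallow; the cause was not tested. No paired analysis was possible because each group has 1 library.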
